A study of Mus musculus with 16 samples.

Results

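The mouse genes numbered Zfp600 to Zfp999 encode mostly C2H2 zinc finger proteins, and they were described here across input RNA, m6A immunoprecipitation and YTHDF2 immunoprecipitation from MC38 cells. A gene was taken when its symbol was Zfp followed by exactly 3 digits, the first of them 6 or more, and its mean over the 6 input libraries was at least 1 CPM (counts scaled to a common library total). Of 174 such symbols among 55401 rows of the count table, 139 passed, out of 14471 rows that reached 1 CPM. Just inside the limit lay Zfp619 at 1.09 CPM and Zfp786 at 1.22 CPM, and just outside it lay Zfp988 at 0.880 CPM and Zfp986 at 0.699 CPM.

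MC38 is labelled as a tumour line and is known as a mouse colon carcinoma line; the cells were grown here in serum-containing medium with no other treatment. The groups were Ythdf2-KO cells, with 3 input and 3 m6A immunoprecipitated libraries, and WT cells, with 3 input and 3 m6A immunoprecipitated libraries. For WT cells there were also 2 YTHDF2 RNA immunoprecipitations (RIP) and 2 RIP inputs. The titles tag the WT input and m6A libraries as gNC and those of Ythdf2-KO cells as gY2. The RIP and RIP input titles carry no such tag, so they do not show whether RIP and WT m6A came from the same preparation of cells. The counts cover the 6 inputs, and the peaks come as 1 list for each of KO-labelled m6A, WT m6A and RIP, with no replicate. The labels do not say whether the knockout is 1 clone, nor whether replicates were separate cultures, so the p-values measure the spread between these libraries, which may be technical.

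C2H2 zinc finger proteins bind DNA through tandem fingers, each a short fold held by a zinc ion, and neighbouring fingers are joined by a conserved linker. Many also carry a KRAB box near the amino end, which recruits the corepressor TRIM28 and, through it, the histone methyltransferase SETDB1; such proteins are known for silencing transposable elements and for marking chromatin over zinc finger gene clusters themselves. Most of these genes lie in tandem arrays made by duplication, and the whole finger array is typically encoded in a single long last exon. N6-methyladenosine (m6A) is laid down on mRNA at DRACH sites, favours long exons and the region around the stop codon, and is read by YTHDF2, which recruits deadenylases and promotes decay of the bound mRNA.

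The input libraries held 45441281 to 50959555 counts. Their first principal component carried 51.4% of the variance and placed KO-labelled replicate 1 at -10.4, KO-labelled replicates 2 and 3 at 64.1 and 63.2 and the 3 WT libraries between -39.2 and -38.6, so KO-labelled replicate 1 stood apart from its own group and results are given with and without it. Ythdf2 itself had 67.9, 59.8 and 61.5 CPM in KO-labelled libraries and 55.6, 68.5 and 59.6 CPM in WT libraries (log2 fold change 0.04, adjusted p = 0.809, edgeR). A whole-gene count does not check a small edit, so these libraries are called KO-labelled throughout. Of 6 epithelial markers (Krt8, Krt18, Epcam, Cdh1, Vil1, Cdx2), none exceeded 0.446 CPM in any library, with Krt18 and Epcam at 0 in all; 4 fibroblast markers summed to 218 to 237 CPM in KO-labelled and 207 to 248 CPM in WT libraries, and 5 leukocyte markers, nearly all of it the macrophage gene Cd68, to 42.2 to 123 CPM in KO-labelled and 54.3 to 74.9 CPM in WT libraries. The 3 endothelial markers summed to 1.32 to 2.68 CPM in KO-labelled and 0.977 to 1.43 CPM in WT libraries. Of these, Cdh5 had a log2 fold change of 1.06 and Pecam1 of -0.71, neither passing (adjusted p = 0.128 and 0.185, edgeR). Without KO-labelled replicate 1 Cdh5 passed (adjusted p = 0.0145, edgeR). The fibroblast marker Thy1 did not exceed 0.102 CPM in any library, so that sum came from the other 3 genes. Within the fibroblast list the genes differed: Col1a1 had 30.1, 6.48 and 7.21 CPM in KO-labelled libraries and 46.2, 16.5 and 20.6 CPM in WT libraries, Pdgfrb 68.9, 28.0 and 32.9 CPM against 56.8, 49.9 and 45.9 CPM, and Pdgfra 138, 184 and 183 CPM against 145, 144 and 140 CPM. Col1a1, Pdgfrb and Pdgfra did not pass over all libraries. Without KO-labelled replicate 1 their log2 fold changes were -2.02, -0.74 and 0.36 and Cd68's was 0.83, all 4 passing (adjusted p = 0.0101, 0.00252, 0.00321 and 0.00264, edgeR). The part of these markers in the results was not tested.

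The genes share an architecture that the selection by symbol did not measure, although the symbol itself names a zinc finger protein. In 138 of the 139 that have a coding model in GENCODE M21 (Zfp939 has none), the median last exon was 2375 bases, against 1219 bases in 11537 other coding genes at 1 CPM or more. The last exon held a median of 86.3% of the coding sequence, against 11.3% in the other coding genes. At least 1 C2H2 finger was found in 135 genes, with a median of 11 and up to 33 fingers (Zfp619), and in 112 genes every finger lay in the last exon. A KRAB box was found in 95 genes. Their level was low: the median was 12.5 CPM against 40.1 CPM for the other coding genes, and per kilobase of exon 3.14 CPM against 8.19 CPM. None of this is particular to the numbers from 600 up. The genes numbered Zfp1 to Zfp599 had a median last exon of 2649 bases, a median of 83.0% of the coding sequence in it and a median of 11 fingers. Their median level was 15.0 CPM, and 59 of the 167 with a coding model had a KRAB box.

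Of the 5 highest levels 4 belonged to genes without a KRAB box, and the 3 lowest to genes with one. Zfp664, a protein of 9 fingers, had 81.2, 112 and 106 CPM in KO-labelled libraries and 91.1, 92.8 and 82.9 CPM in WT libraries. Zfp740, with 2 fingers, had 82.1, 90.9 and 91.4 CPM in KO-labelled libraries and 84.0, 91.2 and 88.1 CPM in WT libraries. Both sets overlapped between the groups. Zfp655 had 76.4, 80.5 and 77.2 CPM in KO-labelled libraries and 90.2, 97.9 and 95.8 CPM in WT libraries, without overlap, and its log2 fold change of -0.28 did not pass (adjusted p = 0.0563, edgeR). Zfp706 and Zfp871 followed at 67.5 to 75.0 and 66.5 to 80.9 CPM in KO-labelled libraries, and at 74.1 to 80.4 and 56.0 to 71.7 CPM in WT libraries. At the other end Zfp619 had 0.596 to 1.30 CPM in KO-labelled and 0.955 to 1.82 CPM in WT libraries, Zfp786 1.20 to 1.51 CPM in KO-labelled and 1.01 to 1.15 CPM in WT libraries, and Zfp820 1.77 to 2.17 CPM in KO-labelled and 1.14 to 1.75 CPM in WT libraries.

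The repeated unit of these genes carries a candidate m6A motif. The linker between fingers, Thr-Gly-Glu-Lys/Arg-Pro in 1 protein after another, was found 741 times in 115 genes. DRACH was searched as any base but C, then A or G, then A and C, then any base but G, on the transcript strand. It was present in 535 of the 741 linkers (72.2%), nearly always as AAACC, which 512 linkers (69.1%) held. The 5 most frequent of 162 forms are shown 5′ to 3′, because 4 of them place the motif at the same point of the repeat, with DRACH matches in capitals.
found 104 times: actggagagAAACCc
found 101 times: acaggagagAAACCt
found 84 times: acaggagagAAACCc
found 47 times: actggagagAAACCt
found 25 times, no match: actggagagaagccc

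These linkers made up 490 of 3022 DRACH matches (16.2%) inside the finger-coding stretches. The stretches themselves were not rich in the motif: 21.3 matches per kilobase, against 25.5 per kilobase in the rest of the same coding sequences and 21.04 per kilobase in the coding sequence of other genes. Below are 120 bases of coding sequence (mm10, mRNA strand) at the centre of a WT m6A peak in the finger array of 4 KRAB genes, those with the smallest deposited p-values, with DRACH in capitals. Zfp984 (chr4:147755311-147755430, minus strand) and Zfp869 (chr8:69706837-69706956, minus strand) each show the linker motif. Zfp948 (chr17:21587969-21588088, plus strand) has 4 matches and no intact linker, and Zfp688 (chr7:127419265-127419384, minus strand) has neither a match nor an intact linker. A peak centre is not a methylated base, since these 4 peaks were 714 to 1545 bases wide.
Zfp984: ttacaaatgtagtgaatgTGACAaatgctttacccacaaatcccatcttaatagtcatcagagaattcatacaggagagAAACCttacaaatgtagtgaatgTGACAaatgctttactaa
Zfp688: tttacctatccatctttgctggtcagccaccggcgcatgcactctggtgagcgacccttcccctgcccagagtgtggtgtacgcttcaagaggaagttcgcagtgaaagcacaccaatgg
Zfp869: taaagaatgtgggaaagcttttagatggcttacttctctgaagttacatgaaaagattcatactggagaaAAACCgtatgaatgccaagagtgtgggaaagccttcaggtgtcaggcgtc
Zfp948: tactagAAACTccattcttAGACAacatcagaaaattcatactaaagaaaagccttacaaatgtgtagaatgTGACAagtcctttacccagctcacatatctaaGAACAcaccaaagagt

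Inside the WT m6A peaks of the zinc finger genes, DRACH occurred 27.0 times per kilobase, against 19.7 times in the unpeaked parts of the same transcripts, a ratio of 1.37 (95% interval for counting error 1.31 to 1.43, 116 genes). The reversed motif, CA followed by the mirror pattern, gave 1.25 over the same stretches. In other coding genes the ratios were 1.28 for DRACH and 1.19 for the reversed motif. Within coding sequence alone the zinc finger genes gave 1.32 for DRACH and 1.14 for the reversed motif.

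Most of the genes carried peaks in every list, in spite of their low level. A KO-labelled m6A peak was named for 103 of the 139 genes (74.1%, 95% Clopper-Pearson interval 66.0 to 81.2), with 253 peaks in all. A WT m6A peak was named for 117 (84.2%, 77.0 to 89.8), with 302 peaks. A RIP peak was named for 111 (79.9%, 72.2 to 86.2), with 340 peaks. The other coding genes were marked at 67.8% in the KO-labelled m6A list, 72.1% in the WT m6A list and 51.0% in the RIP list. Those other genes whose last exon reached 2000 bases were marked at 77.9%, 81.7% and 70.9% in the same lists. The genes numbered Zfp1 to Zfp599 had shares of 80.1%, 90.6% and 79.5%.

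For m6A the gap to the other coding genes was wider in each class of level from 2 CPM up than over all levels. Among genes of 2 to 5 CPM, 13 of 17 zinc finger genes (76.5%, 50.1 to 93.2) had a WT m6A peak, against 36.5% (33.0 to 40.1) of other coding genes and 42.6% of those with a long last exon. Between 5 and 10 CPM the shares were 81.3% (63.6 to 92.8) in zinc finger genes, against 59.2% (55.7 to 62.7) in other coding genes and 75.9% in those with a long last exon, the gap to genes with a long last exon being within the counting interval. Between 10 and 20 CPM they were 90.7% (77.9 to 97.4), against 68.7% and 80.4%. At 20 CPM or more they were 95.1% (83.5 to 99.4), against 80.7% and 89.5%. In both classes the gap to genes with a long last exon was again within the counting interval. For RIP, 12 of 17 zinc finger genes of 2 to 5 CPM (70.6%, 44.0 to 89.7) were marked, against 26.1% of other coding genes and 44.8% of those with a long last exon, the gap to the last being within the counting interval. Below 2 CPM none of 6 zinc finger genes had an m6A peak in either list, a count that allows a share of up to 45.9%, and the other coding genes were marked there at 11.7% in the KO-labelled and 17.6% in the WT m6A list. A RIP peak was named for 2 of the 6 (33.3%), against 12.5% of the other coding genes. These intervals cover counting error only.

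**Figure D1:**
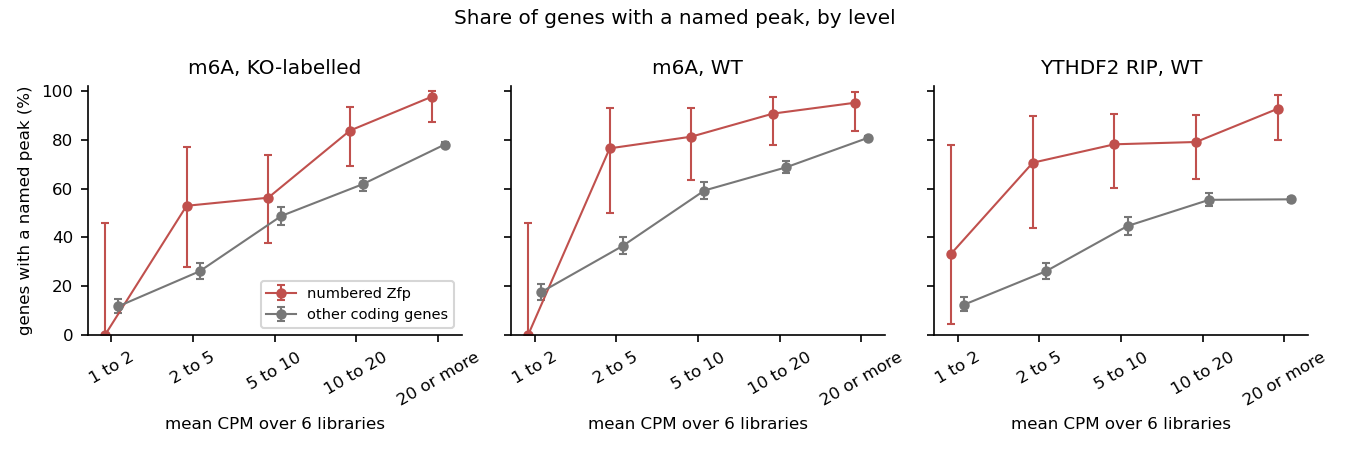
Share of genes (percent, vertical axis) with a peak named for them in the KO-labelled m6A, WT m6A and RIP lists, by class of mean CPM (horizontal axis), for the 139 zinc finger genes (red) and 11537 other coding genes (grey). Bars are 95% Clopper-Pearson intervals; from 2 CPM up the zinc finger genes lie above the other genes in all 3 panels, for example at 76.5% against 36.5% for WT m6A at 2 to 5 CPM.

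The peaks of the KRAB genes lay in the last exon. Of 186 WT m6A peak centres placed on their transcripts, 95.2% (91.0 to 97.8) were in the last exon, where 83.6% would lie if centres were spread evenly along the same transcripts. In genes without a KRAB box the last exon held 51.6% of 95 centres (even spread 55.7%), and in other coding genes 53.6% (even spread 48.9%). The coding part of the transcript held 70.5% of all 281 centres of the zinc finger genes, against 55.2% for an even spread, while the 3′ UTR held 26.3%, against 37.2%. In other coding genes the corresponding coding share was 61.3%, against an even 55.0%. Within 200 bases of the stop codon lay 17.8% (13.5 to 22.8) of the zinc finger centres and 25.9% (25.2 to 26.6) of those of other coding genes, and an even spread gives 11.8% and 12.4%. The finger-coding stretch held 37.4% (31.7 to 43.3) of the centres over all zinc finger genes, an interval that holds the 31.9% of an even spread. In genes with a KRAB box it held 41.9% (34.8 to 49.4), against 32.9% for an even spread, and in genes without the box 28.4% (19.6 to 38.6), against 29.9%. RIP peak centres fell there at 44.3% (37.0 to 51.8) in genes with a KRAB box, against 31.1% for an even spread, and at 28.7% (21.1 to 37.3) in genes without it, against 24.7%. In the genes numbered Zfp1 to Zfp599, 81.4% of WT m6A peak centres lay in the last exon and 73.4% in the coding part. The finger-coding stretch held 40.0% of the centres of those genes, so these positions are not particular to the set described here.

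**Figure D2:**
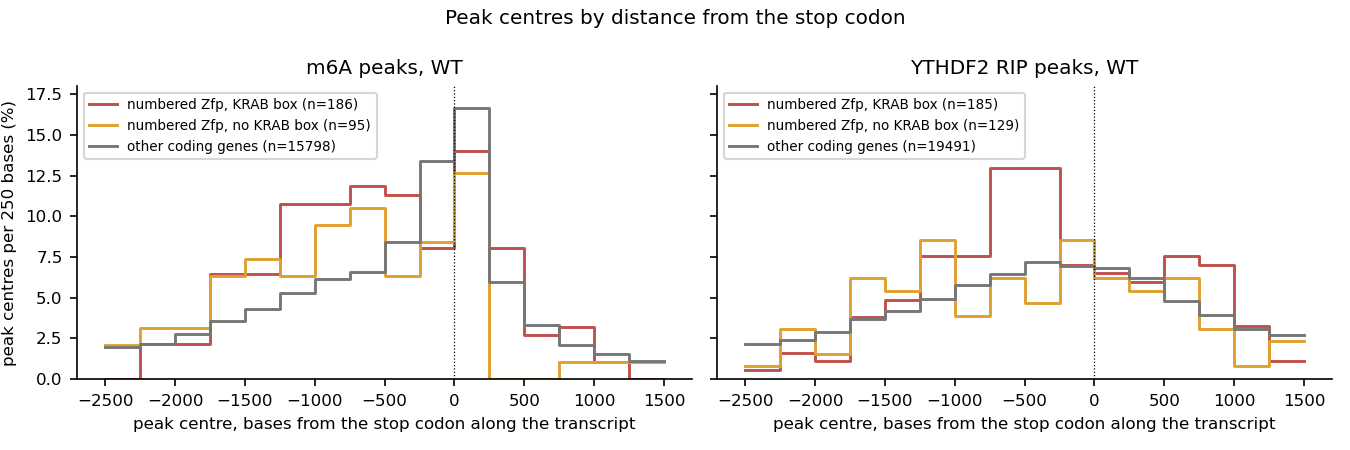
Peak centres (percent of centres per bin, vertical axis) by distance from the stop codon along the transcript in bases (horizontal axis, coding sequence to the left of 0), for WT m6A peaks (left) and RIP peaks (right). The KRAB genes are in red (186 and 185 centres) and other coding genes in grey. In both panels the KRAB centres spread over the coding sequence upstream of the stop codon. For m6A the bin just after the stop codon is the highest in both sets of genes. Within 200 bases of the stop codon lie 18.3% (13.0 to 24.6) of the KRAB m6A centres, against 12.7% for an even spread. For other coding genes the share is 25.9%, against an even 12.4%.

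Peaks of the 2 kinds coincided more often in these genes than over the lists as a whole. Of the 302 WT m6A peaks, 230 (76.2%, 70.9 to 80.9) shared at least 1 base with a RIP peak, against 48.3% of the whole WT m6A list. Of the 340 RIP peaks, 47.6% (42.2 to 53.1) shared a base with a WT m6A peak, against 34.2% of the whole RIP list. More of these genes had a RIP peak at all, 79.9% against 51.0% of other coding genes. Some RIP peaks were nearly as long as the transcript, such as 2722 bases in Zfp985, whose transcript has 2762 bases. Any m6A peak in such a gene would overlap, and the part of both in these shares was not tested. Between the m6A lists, 88.1% of the 253 KO-labelled peaks were overlapped by a WT peak, against 89.3% of the whole list, and 69.9% (64.4 to 75.0) of the WT peaks by a KO-labelled peak, against 80.3% of the whole list. With 1 list per group, a peak present in only 1 list cannot be told apart from a peak near the calling limit.

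The largest covered lengths belonged mostly to genes without a KRAB box. Zfp638 had 1953 bases in 4 KO-labelled m6A peaks, 3665 bases in 6 WT m6A peaks and 8 RIP peaks. Zfp644, Zfp609, Zfp951, Zfp646 and Zfp608 followed, at 2972 to 1953 bases of WT m6A peaks; Zfp609 and Zfp608 are large proteins with a single finger each by the pattern used, and Zfp951 is the only KRAB gene among them. In the RIP list Zfp871, a KRAB gene with 15 fingers and a last exon of 10513 bases, had 9954 bases in 8 peaks, and Zfp652, known in human as a transcriptional repressor, with a last exon of 8815 bases, had 9870 bases in 5 peaks. Zfp827, Zfp609, Zfp646 and Zfp638 came next at 7516 to 5827 bases.

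Both m6A lists named 100 genes, the KO-labelled list alone 3, the WT list alone 17 and neither 19. The 17 had a median of 6.65 CPM, against 16.4 CPM for the 100. The most abundant of the 17 were Zfp956, Zfp971, Zfp931, Zfp973, Zfp764 and Zfp950, with 60 to 629 bases of WT m6A peaks each. All but Zfp956 had a negative log2 fold change in the input RNA, from -0.25 to -0.79, and none passed the test. The 3 of the KO-labelled list were Zfp706, Zfp960 and Zfp982, each with 1 peak of 60 to 91 bases.

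No list named 12 genes, and the 5 most abundant of these, Zfp966, Zfp969, Zfp965, Zfp967 and Zfp968, all lie in a single array on chromosome 2. Between 78.7% and 100% of the 100-base runs in their transcripts recur in transcripts of other genes, so reads from them can be split between copies or set aside. Over all 37 genes in which at least 10% of such runs recur, 48.6% had a KO-labelled m6A peak, 67.6% a WT m6A peak and 59.5% a RIP peak, against 83.2%, 90.1% and 87.1% in the 101 genes below 10%. Their median level was also lower, at 8.18 CPM against 14.8 CPM, and the part of shared sequence in these shares was not tested.

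Between the groups, 5 of the 139 genes were lower in KO-labelled libraries and none was higher (edgeR quasi-likelihood test, Benjamini-Hochberg adjusted p below 0.05 over 18969 genes). The 5 are 3.60% of the genes, against a background of 1.54% of all genes tested called lower and 2.99% called higher. At an unadjusted p below 0.05, 36 were lower (25.9%, against 12.6% of all genes tested) and 13 higher (9.35%, against 16.9%). DESeq2 called 29 lower and 6 higher, where it called 6.86% of all genes lower and 11.2% higher. All 5 are KRAB genes, and 4 of them lie in an array on chromosome 4. By level, 1 of 6 genes of 1 to 2 CPM was called lower, against 1.71% of other coding genes. Between 2 and 5 CPM 2 of 17 were, against 3.56%, and between 5 and 10 CPM 1 of 32, against 3.22%. Between 10 and 20 CPM 1 of 43 was, against 2.10%, and at 20 CPM or more 0 of 41, against 1.31%. The part of level in the share of calls was not tested.

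Zfp600 (chr4:146156824-146198755, plus strand) encodes 17 fingers. It had 1.20, 1.12 and 1.28 CPM in KO-labelled libraries and 4.31, 3.52 and 3.37 CPM in WT libraries. All KO-labelled libraries lay below all WT libraries, by a log2 fold change of -1.64 (SE 0.19, adjusted p = 0.0196, edgeR). Without KO-labelled replicate 1 the adjusted p was 9.1e-04.

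Zfp980 (chr4:145670685-145704441, plus strand) encodes 13 fingers and had 1.11, 1.04 and 1.23 CPM in KO-labelled libraries and 2.64, 2.08 and 2.39 CPM in WT libraries. The groups did not overlap, and its log2 fold change was -1.07 (SE 0.20, adjusted p = 0.0362, edgeR). Zfp981 (chr4:146502027-146539395, plus strand), with 7 fingers, had 2.02, 2.48 and 2.21 CPM in KO-labelled libraries and 4.21, 4.06 and 3.74 CPM in WT libraries. Its libraries were likewise separate, at a log2 fold change of -0.84 (SE 0.17, adjusted p = 0.0414, edgeR). Zfp600, Zfp980 and Zfp981 carried no peak in any list.

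Zfp985 (chr4:147553277-147585198, plus strand), with 10 fingers, was the most abundant of the 5. It had 17.5, 12.8 and 12.1 CPM in KO-labelled libraries and 27.4, 25.3 and 23.1 CPM in WT libraries. KO-labelled replicate 1 was the nearest to the WT libraries but did not reach them, and the log2 fold change was -0.84 (SE 0.16, adjusted p = 0.0383, edgeR). It carried 2 KO-labelled m6A peaks, 2 WT m6A peaks and 1 RIP peak of 2722 bases.

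Zfp947 (chr17:22144359-22166190, minus strand), with 9 fingers, had 4.50, 3.76 and 3.77 CPM in KO-labelled libraries and 6.66, 6.49 and 6.69 CPM in WT libraries, again without overlap (log2 fold change -0.72, SE 0.15, adjusted p = 0.0434, edgeR). It had no KO-labelled m6A peak, 2 WT m6A peaks and 5 RIP peaks. The next smallest p belonged to Zfp687, which has no KRAB box and is known in human as a subunit of a chromatin complex, with 55.6, 62.8 and 62.3 CPM in KO-labelled libraries and 42.6, 48.4 and 46.8 CPM in WT libraries. Those groups did not overlap either, but the log2 fold change of 0.39 (SE 0.09) did not pass (adjusted p = 0.0505, edgeR).

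The 5 calls were near the limit, and without a filter on low counts 1 gene, Zfp600, was called. Leaving out each library in turn, Zfp600 was called in 2 of 6 fits and the other 4 genes only in the fit without KO-labelled replicate 1, with adjusted p-values of up to 0.132 for Zfp600, 0.176 for Zfp980, Zfp981 and Zfp985 and 0.192 for Zfp947 (edgeR). Without KO-labelled replicate 1, 54 of the 139 genes were lower (38.8%, against 16.1% of all genes tested) and 16 were higher (11.5%, against 19.3%).

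**Figure D3:**
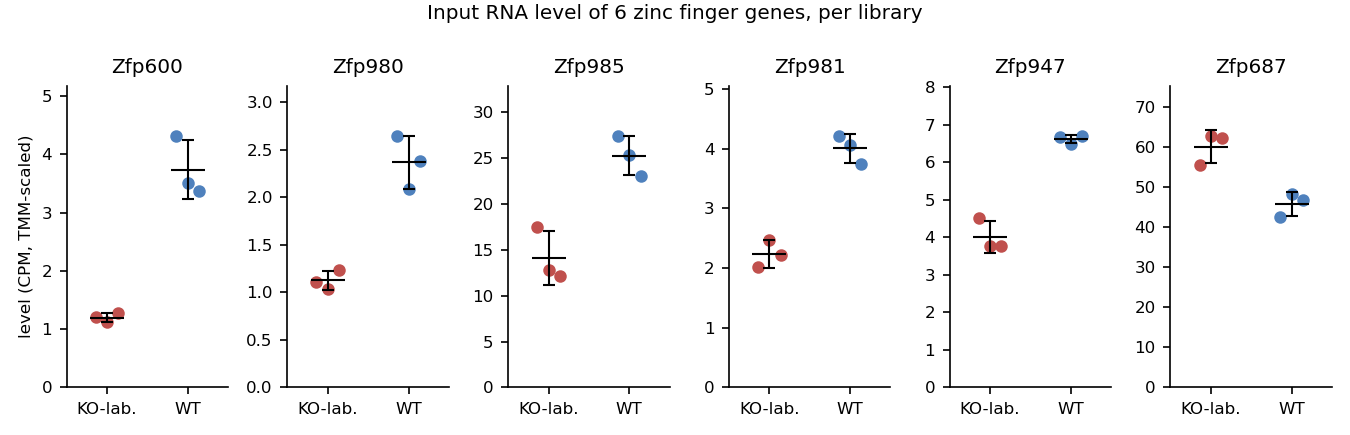
Input RNA level (CPM with TMM-scaled library totals, vertical axes starting at 0) of the 5 genes that passed the test and of Zfp687, which did not, in KO-labelled (red, left) and WT (blue, right) libraries, with the mean and SD of 3 libraries in black. For all 6 genes the groups do not overlap, with KO-labelled below WT in the first 5 and above WT in Zfp687.

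Over all 139 genes negative values prevailed. The log2 fold change was negative in 90 and positive in 49, with a median of -0.13, against -0.0055 for all genes tested and 0.06 for other coding genes. All 3 KO-labelled libraries lay below all 3 WT libraries in 40 genes (28.8%), against a background of 16.2% of all genes tested, and above them in 16 (11.5%), against 17.7%. Without KO-labelled replicate 1 the median was -0.23.

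Split by the KRAB box, negative values were more frequent in the genes that have it. Of the 95, 68 had a negative log2 fold change and the median was -0.27, with 5 called lower, none called higher (3 at an unadjusted p below 0.05), 33 wholly below WT and 7 wholly above. Of the 43 without the box, 21 were negative and 22 positive, the median was 0.00, none was called (4 lower and 10 higher at an unadjusted p below 0.05), 6 were wholly below WT and 9 wholly above. As a background to these counts, 1.54% of all genes tested were called lower and 2.99% higher. At an unadjusted p below 0.05 the background was 12.6% lower and 16.9% higher (edgeR). Of all genes tested, 16.2% lay wholly below WT and 17.7% wholly above. Outside the numbered set, 139 other genes with a KRAB box had a median of -0.31, with 106 negative, 3 called lower and none higher. The genes numbered Zfp1 to Zfp599, of which 167 have a coding model and 59 a KRAB box, had a median of -0.03. Without KO-labelled replicate 1 the medians were -0.42 for the KRAB genes, -0.01 for those without the box and -0.46 for the other KRAB genes. The difference between genes with and without the box is given as a description and was not tested.

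**Figure D4:**
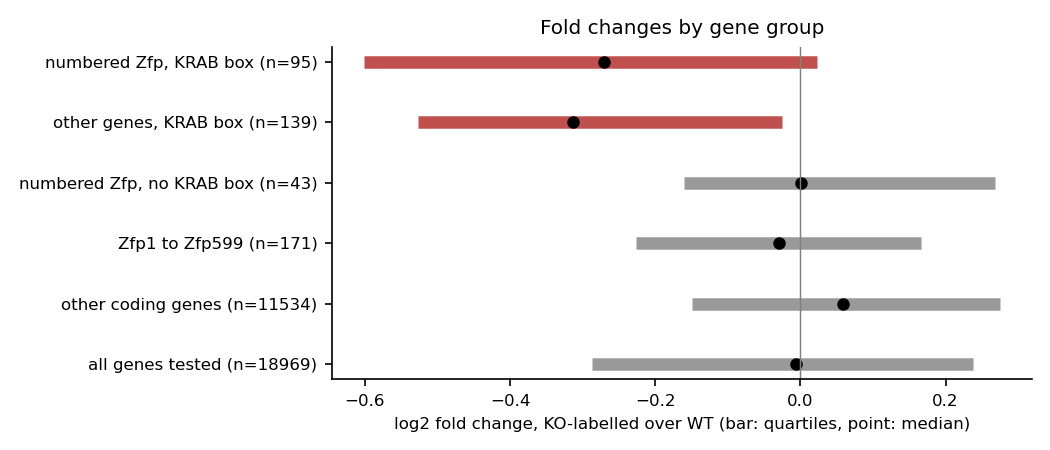
Log2 fold change in input RNA, KO-labelled over WT (horizontal axis), as the median (point) and quartiles (bar) of each gene group; the groups overlap, since the Zfp1 to Zfp599 genes and the other KRAB genes are also among the other coding genes. The 2 sets with a KRAB box (red) have medians of -0.27 and -0.31, and the other 4 sets lie between -0.03 and 0.06.

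At matched level the KRAB genes were set against other coding genes only. The genes without the box were not split by level. Among genes of 10 to 20 CPM the 31 KRAB genes had a median log2 fold change of -0.29, against 0.07 in 1382 other coding genes, and among those of 5 to 10 CPM the medians were -0.32 in 28 KRAB genes and -0.01 in 777 other coding genes. At 20 CPM or more they were -0.23 in 16 KRAB genes and 0.07 in 8117 other coding genes. Between 2 and 5 CPM they were -0.27 in 15 KRAB genes and -0.11 in 731 other coding genes. Between 1 and 2 CPM the other coding genes also had a negative median, -0.22, against -0.27 in 5 KRAB genes.

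By position, 3 arrays of the genome held the most negative values. The genes were joined into position groups where neighbours lay within 1 megabase, and 10 groups held 5 or more; this grouping was made after the values were seen and has no test. On chromosome 4 (145670685 to 147848366) all 12 genes, each with a KRAB box, had a negative log2 fold change, with a median of -0.68, 4 calls and 8 genes wholly below WT. On chromosome 2 (175372436 to 178078476) all 9 were negative, with a median of -0.56, no call (6 below an unadjusted p of 0.05) and 6 wholly below WT. On chromosome 17 (21383748 to 22867134) 12 of 14 were negative, with a median of -0.46, 1 call (Zfp947), 10 wholly below WT and 1, Zfp820, wholly above. The other 7 groups had medians between -0.18 and 0.27, the highest on chromosome 6. Over all libraries, 1.54% of all genes tested were called lower and 12.6% were lower at an unadjusted p below 0.05. Of all genes tested, 16.2% lay wholly below WT and 17.7% wholly above. Without KO-labelled replicate 1, 10 of 12, 8 of 9 and 9 of 14 genes of the 3 arrays were lower, against 16.1% of all genes tested.

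**Figure D5:**
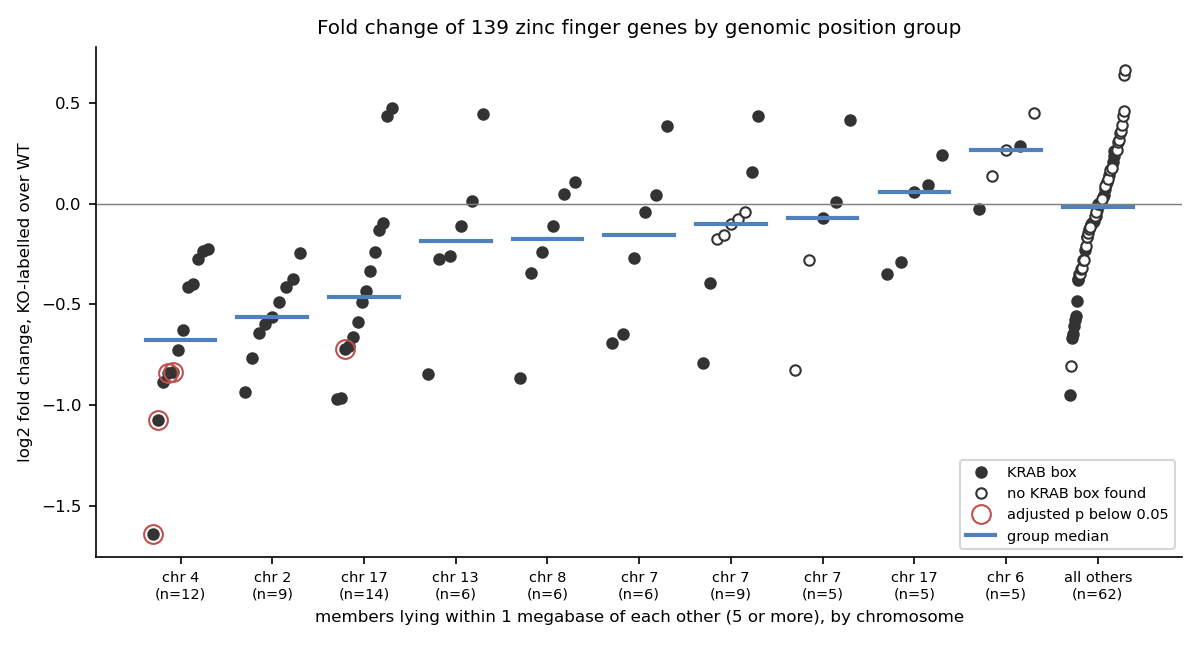
Log2 fold change in input RNA, KO-labelled over WT (vertical axis), of each of the 139 genes, grouped by genomic position and ordered by group median (blue line); filled points have a KRAB box, open points none found (1 of them has no coding model), and red rings mark the 5 genes that passed the test. All points of the chromosome 4 and chromosome 2 arrays lie below 0, and the chromosome 6 group has the highest median, 0.27.

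Other genes inside the same stretches behaved differently from array to array. In the chromosome 2 stretch, 31 further genes at 1 CPM or more, 22 of them with a KRAB box, had a median of -0.48, with 29 negative and 2 called lower. In the chromosome 4 stretch, 16 further genes, 3 with a KRAB box, had a median of -0.09 and 9 were negative. In the chromosome 17 stretch, 14 further genes, 4 with a KRAB box, had a median of -0.03 and 8 were negative.

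The arrays also differed in how far their copies resemble each other. The median share of 100-base runs that recur in other genes' transcripts was 29.9% on chromosome 4, 78.7% on chromosome 2 and 0 on chromosome 17, so that counts of the chromosome 4 and chromosome 2 arrays can hold reads of several copies, while those on chromosome 17 rest largely on unique sequence. For Zfp600 and Zfp980 the share was 68.5% and 46.1%, with the closest match in Rex2, and for Zfp981, Zfp985 and Zfp947 it was 12.6%, 1.92% and 2.63%. Over the 37 genes at 10% or more the median log2 fold change was -0.39, with 3 calls, and over the 101 below 10% it was -0.07, with 2 calls.

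On chromosome 17, where copies are distinct, 3 further genes of the array, chosen here after their values were seen, had differences that did not pass. Zfp945 had 23.3, 13.9 and 12.2 CPM in KO-labelled libraries and 36.4, 29.4 and 31.0 CPM in WT libraries (log2 fold change -0.97, adjusted p = 0.0599, edgeR). Zfp995 had 7.51, 5.10 and 4.15 CPM in KO-labelled libraries and 10.9 CPM in each WT library (-0.96, adjusted p = 0.0529, edgeR). In both, KO-labelled replicate 1 was the highest of its group and still below every WT library. In the same array Zfp948 went the other way, with 29.4, 38.2 and 38.3 CPM in KO-labelled libraries and 29.6, 23.1 and 23.6 CPM in WT libraries (0.47, adjusted p = 0.0911, edgeR), and there KO-labelled replicate 1 overlapped WT replicate 1.

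The start regions of the 4 called genes on chromosome 4 are shown because all 4 were called lower and their upstream sequences are alike. The RefSeq windows of 300 bases around the start (GRCm38.p6) matched 120 of the 139 genes. Between Zfp600, Zfp980, Zfp981 and Zfp985 the windows were 78.0% to 90.3% identical in global alignment, against a median of 53.0% between genes taken 1 from each position group (1326 pairs). The 170 bases before each start follow, on the plus strand. They lie at chr4:146156657-146156826 for Zfp600, chr4:145670527-145670696 for Zfp980, chr4:146514750-146514919 for Zfp981 and chr4:147553107-147553276 for Zfp985. Capitals mark the longest run common to all 4 before the start. Over the whole windows a longer run of 21 bases, beginning at -9 to 19 bases from the start, was also common to all 4. RefSeq and GENCODE place starts differently: the window of Zfp981 lies inside the GENCODE gene given above.
Zfp600: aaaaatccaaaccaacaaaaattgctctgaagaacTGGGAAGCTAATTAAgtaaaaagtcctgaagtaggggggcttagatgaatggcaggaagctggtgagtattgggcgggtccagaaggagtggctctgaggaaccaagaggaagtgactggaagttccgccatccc
Zfp980: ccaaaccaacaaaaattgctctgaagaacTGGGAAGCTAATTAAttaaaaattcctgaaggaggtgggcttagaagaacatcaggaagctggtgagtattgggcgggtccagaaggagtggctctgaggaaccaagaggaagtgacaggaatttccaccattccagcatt
Zfp981: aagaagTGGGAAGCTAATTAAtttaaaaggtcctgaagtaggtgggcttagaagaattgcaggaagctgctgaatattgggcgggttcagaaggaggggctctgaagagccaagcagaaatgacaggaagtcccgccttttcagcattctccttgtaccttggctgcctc
Zfp985: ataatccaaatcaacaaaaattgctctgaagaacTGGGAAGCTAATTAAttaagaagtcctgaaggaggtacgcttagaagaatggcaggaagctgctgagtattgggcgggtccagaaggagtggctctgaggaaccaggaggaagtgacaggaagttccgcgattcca

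Over all 9 genes of the chromosome 4 array with a window, the median identity was 54.8% (36 pairs), so the likeness holds for a subset of that array. Zfp600, Zfp979, Zfp980, Zfp981, Zfp984 and Zfp985 were 72.7% to 96.7% identical to each other. Identity used only 1 window of each gene. The run of 15 bases, searched on both strands in all windows of a gene, occurs before the start of 12 of 27025 genes (0.0444%). Of the numbered genes 7 hold it, all on chromosome 4. They are the 4 called genes, which hold it by construction since the run was defined from them, and 3 more. The 3 are Zfp979, Zfp982 and Zfp984, named here after their values were seen. These 3 had log2 fold changes of -0.41, -0.40 and -0.22 and did not pass (adjusted p = 0.0836, 0.263 and 0.158, edgeR). The window of Zfp979 was 96.7% identical to that of Zfp600, whose log2 fold change was -1.64. In the chromosome 2 array the windows of 8 genes were 72.0% to 100% identical to each other, with a median of 91.0%, and in the chromosome 17 array the median over 91 pairs was 54.7%, near the 53.0% of genes taken 1 from each position group. A shared sequence is a description and shows no binding or control.

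Set beside their marks, the genes with peaks were not the ones with the lowest values. The 103 genes with both a WT m6A and a RIP peak had a median log2 fold change of -0.09 with 2 calls, those with m6A alone (14 genes) -0.22, those with RIP alone (8 genes) -0.34 and those with neither (14 genes) -0.62, with 3 of the 5 calls. Other coding genes with both peaks had a median of 0.10 and those with neither -0.01. The 14 genes with neither also had low levels, with medians of 4.42 CPM in KO-labelled and 6.04 CPM in WT libraries. Several of them share much sequence with other genes, such as Zfp600 (68.5% of 100-base runs), Zfp980 (46.1%) and Zfp966 (78.7%). Genes in which at least 10% of such runs recur less often had a WT m6A peak (67.6% against 90.1%). Their median log2 fold change was also lower, at -0.39 against -0.07. The parts of level and of shared sequence in these fold changes were not tested.

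The highest log2 fold change was that of Zfp821, which has no KRAB box and is given here after its values were seen, with 11.997, 16.2 and 18.4 CPM in KO-labelled libraries and 10.5, 9.49 and 9.44 CPM in WT libraries (0.66, adjusted p = 0.0650, edgeR). The groups did not overlap. The highest values among KRAB genes were 0.47 in Zfp948, 0.44 in Zfp712, 0.44 in Zfp688 and 0.44 in Zfp820, none of which passed, also given after their values were seen. Of the genes named above for the length of their peaks, Zfp652, Zfp609 and Zfp608 also had positive values. Zfp652 had 51.6, 76.7 and 75.5 CPM in KO-labelled libraries and 39.1, 48.7 and 42.9 CPM in WT libraries, without overlap (log2 fold change 0.64, adjusted p = 0.0643, edgeR). Zfp609 had 46.1, 53.4 and 57.0 CPM in KO-labelled libraries and 44.8, 40.2 and 41.6 CPM in WT libraries (0.31, adjusted p = 0.102, edgeR), and Zfp608 24.9, 27.0 and 29.1 CPM in KO-labelled libraries and 15.8, 21.5 and 22.7 CPM in WT libraries (0.43, adjusted p = 0.114, edgeR). These 3 carried peaks in every list and, like Zfp687, passed without KO-labelled replicate 1 (adjusted p = 8.3e-04, 0.00576, 0.0423 and 0.00321 for Zfp652, Zfp609, Zfp608 and Zfp687, edgeR).

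Partners of KRAB proteins and related chromatin genes were followed as a list of 26 symbols, of which 25 had a row and 24 were tested. Fam208a, an older name of the listed Tasor, had no row, and the listed Zfp57 is itself a KRAB gene and not a partner. Of the 24, 1 was called higher and none lower, and the median log2 fold change was 0.06. Over all genes tested, 2.99% were called higher and 1.54% lower. Trim28, the corepressor that KRAB boxes bind, had 215, 213 and 211 CPM in KO-labelled libraries and 211, 230 and 220 CPM in WT libraries, which overlap (log2 fold change -0.05, adjusted p = 0.658, edgeR), and it had no WT m6A or RIP peak. Uhrf1, which recruits the maintenance DNA methyltransferase to replicated DNA, had 93.1, 149 and 150 CPM in KO-labelled libraries and 59.0, 74.5 and 76.3 CPM in WT libraries. The groups did not overlap and its log2 fold change was 0.90 (SE 0.20, adjusted p = 0.0492, edgeR). In each of the 5 fits that left out another library, none of the list was called. Without KO-labelled replicate 1, 7 of the 24 were higher and 3 lower, against 19.3% and 16.1% of all genes tested.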

How the data were processed

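Input RNA, m6A immunoprecipitates and YTHDF2 RIP of MC38 cells were sequenced. The submitters' processing notes name HISAT2, HOMER, ChIPseeker and mm10; their roles, the read counter, its strand setting and its treatment of multiply mapped reads are not stated there. The authors deposited whole-number counts per gene for the 6 inputs and 3 peak lists; the deposited peak score, unnamed in the file, was taken as a p-value from its values. Libraries held 45441281 to 50959555 counts, so 3 counts correspond to 0.0589 to 0.0660 CPM.

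Counts were fitted with edgeR 4.0.16 (R 4.3.3; filterByExpr, TMM, quasi-likelihood test, 18969 genes, Benjamini-Hochberg adjusted p below 0.05), which was tested on simulated data; DESeq2 1.42.0 was an alternative. Printed CPM use TMM-scaled totals, and membership used plain CPM. A peak belongs to the gene its name gives. Transcripts, exons and mm10 positions are GENCODE M21 (longest coding sequence); fingers and KRAB boxes are pattern matches in its translation, so weak copies are missed. Sequence alignment used Biopython 1.88 and intervals SciPy 1.17.1. Exons of 17 of the genes overlap another gene on the same strand and of 28 a gene on the other strand, and their counts are uncertain. Intervals cover counting error only, without molecular identifiers. Library names were matched to labels by title.

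Genes named were the called ones, the 6 smallest p-values, the 5 highest and 3 lowest levels, the 6 with most WT m6A and most RIP peak bases, up to 6 marked in 1 m6A list alone, the 5 most abundant with no peak, and Trim28 and called genes of the corepressor list. The genes and lists were chosen with earlier results of these data known.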

Additional observations from a re-analysis of the deposited data

How the results depend on the processing

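Genes called lower numbered 5 with edgeR, 29 with DESeq2, 1 without a low-count filter and 0 with the replicate number as a block; genes called higher numbered 0 with edgeR and 6 with DESeq2. Leaving out 1 library at a time gave 0 to 54 lower and 0 to 16 higher, the highest counts coming without KO-labelled replicate 1. Corepressor genes called (alternatives added after seeing the data) numbered 1 with edgeR, 0 with DESeq2 size factors, 4 with DESeq2, 0 without the filter and 0 to 10 with 1 library left out, again highest without KO-labelled replicate 1. The causes were not tested. Same-numbered KO-labelled and WT libraries correlated at 0.049, 0.115 and 0.05 in their deviations from the group means, too little to treat the numbers as pairs, although each library correlated best with its own number; the replicate block called 45 genes higher and 26 lower over all 18969. The median log2 fold change of the 139 genes stayed between -0.23 and -0.09 under all 12 alternatives run. Of the WT m6A peaks, 59.9% were covered to at least 50% by KO-labelled peaks, against 69.9% touched at all, and the stricter motif RRACH gave a ratio of 1.48, against 1.37. No result changed direction. Genes near 1 CPM rest on few reads, and the peak lists have no replicates.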
